A study of Mus musculus with 17 samples.

Results

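The comparison described here set the choroid plexus of mice after 1 day of dextran sulfate sodium, DSS (T1, n = 4 libraries), against that of controls (CTRL, n = 5). These 9 libraries were taken from the 17 of the series by their group labels, and the other 8 belong to later stages of the same course: 3 days of DSS (T3), and 3 days of DSS followed by 2 days of water (T5). Each library was RNA-seq of C57BL/6 choroid plexus, taken whole from the lateral ventricles. The labels give no age, sex, DSS dose, drink of the controls or hour of dissection, and they do not say that each library came from a separate animal, so the p-values below measure the spread between these libraries, which may be partly technical.

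The choroid plexus hangs in the ventricles of the brain. Its cuboidal epithelium, sealed by tight junctions, secretes the cerebrospinal fluid and carries transthyretin, folate and other solutes into it. Beneath lies a stroma of fenestrated capillaries, mural cells, fibroblasts and macrophages, and the tissue keeps a strong circadian clock of its own. DSS is a sulfated polysaccharide that injures the lining of the colon when mice drink it, so that bacterial products and cytokines can enter the blood. The comparison asks what the barrier tissue shows within a day of that exposure.

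The epithelial identity of the samples was plain in every library. Ttr, which encodes transthyretin, held 6.75 to 13.6% of all counts in the T1 libraries and 9.76 to 12.9% in CTRL, and none of the 15 epithelial marker genes was near 0. Depth ran from 16021690 to 25854664 counts in CTRL. In T1 it was 10751532, 23555242, 13864598 and 8875921 counts in replicates 1 to 4. Of 55487 genes in the table, 16851 passed the filter on low counts. Levels are given in CPM, counts scaled to a common library total and adjusted for library composition, and differences as log2 fold changes with ± for their approximate standard error. In bulk tissue, fewer cells of a type and less RNA per cell cannot be told apart.

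Several T1 libraries stood apart before any contrast was made. T1 replicate 3 held transcripts of pituitary hormones: Gh, growth hormone, was at 3742 CPM (57779 counts) against 0 to 13.5 CPM in the other 8 libraries, Prl, prolactin, at 269.3 CPM, and Pomc, the corticotropin precursor, at 83.1 CPM. The 12 genes of a pituitary list summed to 4135 CPM there, which is 0.4605% of its counts, against 0.757 to 17.9 CPM in the others, and 11 of the 12 were highest in that library. T1 replicate 4 held pineal transcripts, among them Tph1 at 24.7 CPM, the first enzyme of serotonin synthesis, and Crx at 5.00 CPM, a photoreceptor and pineal transcription factor. Its 12 pineal genes summed to 132 CPM against 5.54 to 12.05 CPM in the others, and all 12 were highest there. Both lists were written after these levels had been seen.

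**Figure D1:**
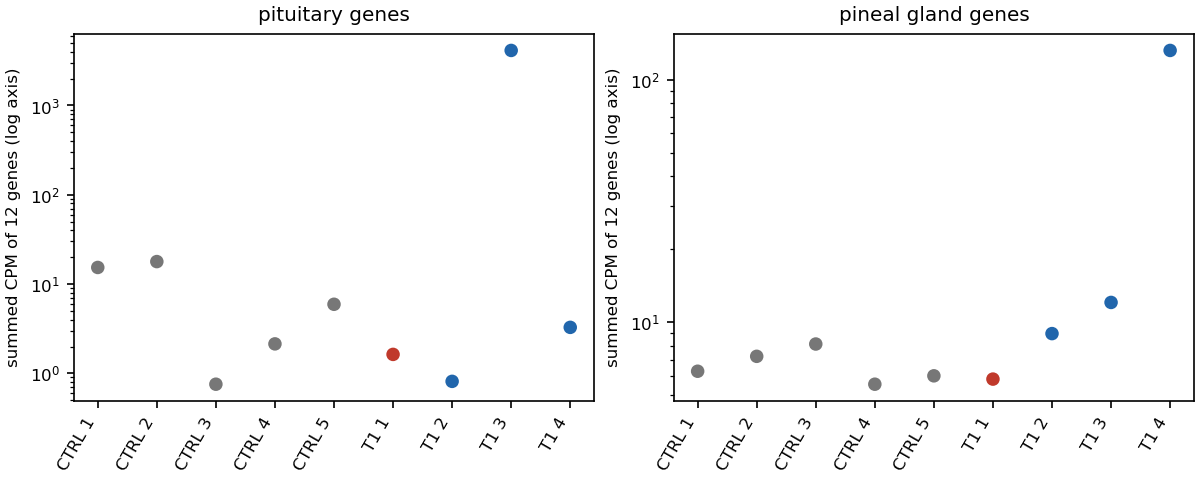
Summed CPM of 12 pituitary genes (left) and 12 pineal gland genes (right), each on a log axis, in the 5 CTRL libraries (grey), T1 replicate 1 (red) and T1 replicates 2 to 4 (blue), 1 point per library. The pituitary sum of T1 replicate 3 reached 4135 and the pineal sum of T1 replicate 4 reached 132.

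A second division ran through the group. T1 replicates 2, 3 and 4 carry sample title numbers of 28 and above, as does T3 replicate 4 and no CTRL library, and T1 replicate 1 carries a low number like the controls; what the numbers record is not given in the sources used here. In T1 replicates 2 to 4, long transcripts were high and short ones low. Over the shortest of 5 length classes of the tested genes (3370 genes of up to 2129 exonic bases) the median log2 fold change against CTRL was -0.31 for these 3 libraries together and 0.01 for T1 replicate 1. Over the longest class (3370 genes) it was 0.34 and 0.01. T3 replicate 4 had the same slope, from -0.36 to 0.33, as measured library by library. The number of genes detected, after each library was thinned to 8875921 counts, was 21399 in T1 replicate 1 and 24170, 25296 and 26356 in replicates 2 to 4, against 19723 to 22969 in CTRL (24305 ± 2133, SD, n = 4, against 20817 ± 1313, n = 5; exact two-sided permutation test p = 0.0317, adjusted over 4 library measures 0.127, where the splits of 9 libraries allow no p under 0.0159). The results below are therefore given for all 4 T1 libraries, for T1 replicates 2 to 4, and for T1 replicate 1. For replicates 2 to 4, DSS and the title number cannot be told apart.

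**Figure D2:**
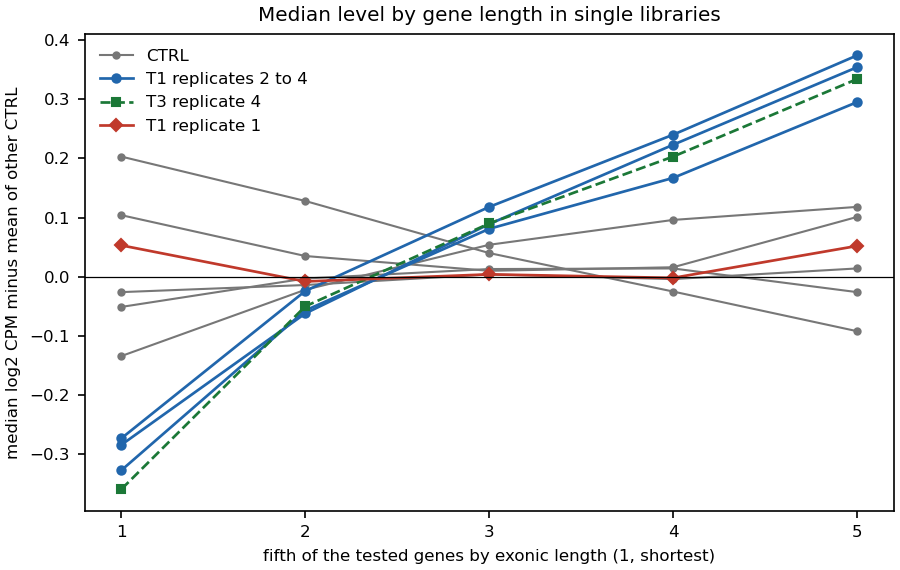
Median log2 CPM minus the mean of the (other) CTRL libraries (vertical axis) over 5 classes of the tested genes by exonic length, shortest to longest (horizontal axis), 1 line per library. T1 replicates 2 to 4 (blue) and T3 replicate 4 (green, dashed) climb from between -0.36 and -0.27 to between 0.295 and 0.374, while T1 replicate 1 (red) stays with the CTRL libraries (grey).

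No gene passed an adjusted p of 0.05 between the 4 T1 and 5 CTRL libraries in edgeR's quasi-likelihood test with Benjamini-Hochberg adjustment; the lowest adjusted p was 0.121. At an unadjusted p under 0.05, 3553 genes differed: 1589 (9.43% of those tested) were higher and 1964 (11.7%) lower in T1. DESeq2 called 701 genes at its adjusted p of 0.05 (276 higher, 425 lower), and limma with sample quality weights called 4140 (1997 higher, 2143 lower). The edgeR count was 2203 when T1 replicate 1 was left out. It was 717 when T3 replicate 4, which is in neither group but enters the low-count filter and the estimate of spread, was left out. For 489 genes (2.90%) all 4 T1 libraries lay above every CTRL library, and for 650 (3.86%) all 4 lay below. Replicates 2 to 4 alone differed from CTRL at 2213 genes, of which 701 (4.16%) rose and 1512 (8.97%) fell. That count rested on single libraries: it was 1 without T1 replicate 3, 40 without T1 replicate 4 and 2 without CTRL replicate 4, and 1 with the level of brain marker genes as a covariate. T1 replicate 1 against CTRL gave no call in edgeR, 864 genes at an unadjusted p under 0.05 (290, or 1.72%, higher and 574, or 3.41%, lower), and 8 calls in DESeq2.

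The genes with the lowest p over all 4 T1 libraries included 2 of the circadian clock, and these lay farthest from the controls in T1 replicate 1. The clock is a loop in which BMAL1 (gene Arntl) pairs with CLOCK or NPAS2 and activates Per, Cry, Nr1d and Dbp genes through E-box motifs, while PER and CRY repress that activity and the REV-ERB proteins (Nr1d1, Nr1d2) repress Arntl through a ROR element. Arntl (chr7:113207465-113314126, plus strand, GRCm38) was at 9.99, 14.9, 17.3, 17.2 and 14.6 CPM in CTRL replicates 1 to 5 and at 40.0, 22.4, 38.9 and 23.04 CPM in T1 replicates 1 to 4. Every T1 library exceeded every control. The mean was 31.1 ± 9.68 CPM (SD, n = 4) in T1 and 14.8 ± 2.96 (SD, n = 5) in CTRL, a log2 fold change of 1.07 ± 0.20 that did not pass over all 4 libraries (edgeR adjusted p = 0.121) and that was 1.43 in replicate 1 and 0.92 ± 0.20 in replicates 2 to 4 (edgeR adjusted p = 0.0204). Dbp (chr7:45705088-45710203, plus strand), an output transcription factor of the clock, ran the other way. It was at 45.9, 27.6, 27.8, 31.99 and 33.0 CPM in CTRL and at 8.67, 21.1, 11.1 and 17.03 CPM in T1, again with no overlap. Its means were 33.3 ± 7.44 and 14.5 ± 5.63 CPM, a log2 fold change of -1.19 ± 0.23 (edgeR adjusted p = 0.121), -1.94 in replicate 1 and -1.01 ± 0.22 in replicates 2 to 4 (edgeR adjusted p = 0.0204). Npas2, the partner that can replace CLOCK, was at 9.32 to 20.3 CPM in CTRL and at 14.1, 26.8, 28.6 and 20.03 CPM in T1, where the groups overlap (0.79 ± 0.23, edgeR adjusted p = 0.138; 0.95 in replicates 2 to 4, edgeR adjusted p = 0.0208).

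Of the other clock genes, named here after their values were seen, T1 replicate 1 lay outside the CTRL range in both directions. Replicates 2 to 4 all lay on the same side of the controls only for Arntl and Dbp. T1 replicate 1 lay above the CTRL range for 4 of 20 clock genes, near the 18.1% of all genes tested, and below it for 8, against 17.9%. Above were Arntl, Clock (74.7 CPM against 51.6 to 73.3 in CTRL), Cry1 (29.8 against 14.1 to 21.8) and Nfil3 (44.1 against 21.2 to 35.5), a repressor that competes with Dbp for the D-box. Below were Dbp and its relatives Tef (55.7 against 75.1 to 117) and Hlf (14.6 against 18.5 to 27.3), the repressors Per2 (7.55 against 8.69 to 21.5) and Cry2 (17.7 against 24.3 to 37.6), Nr1d1 (21.6 against 22.7 to 46.6), Nr1d2 (59.5 against 64.8 to 96.1), and Bhlhe41 (3.88 against 4.28 to 7.91), which also represses clock targets. In replicates 2 to 4 Cry2 was at 40.8, 36.5 and 44.3 CPM and Per2 at 16.6, 28.3 and 18.2 CPM, within or above the CTRL range. Clock was at 68.7, 51.3 and 45.3 CPM there and Nr1d2 at 97.2, 54.3 and 58.2 CPM, so both left the CTRL range in some of these libraries. Over the 4 libraries 1 of 20 clock genes lay above and 1 below all controls, beside 2.90% and 3.86% of all genes. The median log2 fold change of the 20 was 0.09, with -0.49 in replicate 1 and 0.15 in replicates 2 to 4, against 0.08, -0.02 and 0.10 over all genes tested. The hour of dissection, with which these genes normally swing, is not stated in the labels, so its part in these levels was not tested.

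**Figure D3:**
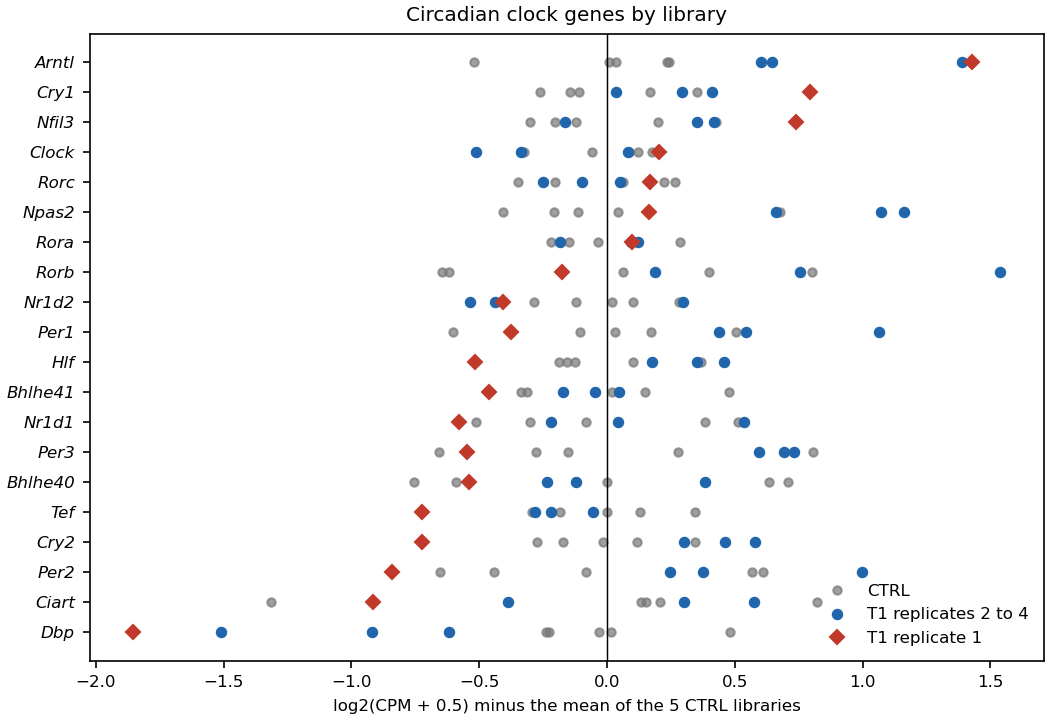
Log2(CPM + 0.5) of the 20 clock genes minus the CTRL mean (horizontal axis), 1 row per gene, in each of the 5 CTRL libraries (grey), T1 replicate 1 (red) and T1 replicates 2 to 4 (blue), 1 point per library. Arntl lies above and Dbp below all CTRL libraries in the 4 T1 libraries, while Cry2, Per2 and Tef are below the CTRL range in replicate 1 alone.

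Promoter stretches are shown for clock genes that left the CTRL range in T1 replicate 1, to let their upstream and downstream parts of the loop be compared. They are from RefSeq on GRCm38.p6, 5′ to 3′ on the strand of the gene, with capitals marking AGGTCA, the core of the ROR element, or CACGTG, the E-box, on either strand (TGACCT is AGGTCA read on the opposite strand). Arntl is cut to 30 bases, which lie just downstream of the start site.
Arntl, chr7:113207530-113207559, plus strand: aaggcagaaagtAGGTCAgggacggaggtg
Clock, chr5:76303592-76303651, minus strand: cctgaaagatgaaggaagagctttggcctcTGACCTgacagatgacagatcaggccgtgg
Nfil3, chr13:52981045-52981104, minus strand: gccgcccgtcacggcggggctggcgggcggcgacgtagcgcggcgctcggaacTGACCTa
Nr1d2, chr14:18239151-18239210, minus strand: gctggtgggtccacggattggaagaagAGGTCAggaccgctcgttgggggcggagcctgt
Cry1, chr10:85185082-85185141, minus strand: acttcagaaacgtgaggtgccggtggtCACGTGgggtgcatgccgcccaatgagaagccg
Bhlhe41, chr6:145865541-145865600, minus strand: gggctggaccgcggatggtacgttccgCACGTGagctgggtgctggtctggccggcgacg
Tef, chr15:81802519-81802578, plus strand: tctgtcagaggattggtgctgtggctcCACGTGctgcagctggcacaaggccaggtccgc
Of the 17 clock genes with a RefSeq promoter of 300 bases, AGGTCA stood in 5 (Arntl, Clock, Nfil3, Nr1d2 and Per1), against 16.3% of 32851 promoters of that length. CACGTG stood in 5 (Bhlhe41, Ciart, Cry1, Per1 and Tef), against 7.15% of all. The D-box letters TTATGTAA, searched likewise on both strands, stood in 1 (Per3), against 0.938%. AGGTCA was present in 3 genes above and in 1 below the CTRL range in T1 replicate 1, and CACGTG in 1 above and 2 below. A gene was counted when any of its promoters held the letters, whereas the shares are of single promoters. Genes with several promoters, such as Tef, thus had more chances of a match. A match is a run of letters and not a measured binding site.

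Outside the clock, the genes that separated the 4 T1 libraries from all controls with the lowest p had modest changes in both directions, none past the adjusted threshold. Among those higher in T1, Gga3, a clathrin adaptor of the Golgi (chr11:115584255-115604051, minus strand), was at 11.1, 10.7, 12.9, 10.9 and 12.2 CPM in CTRL and at 18.2, 21.9, 24.4 and 25.04 CPM in T1 (0.95 ± 0.18, edgeR adjusted p = 0.121). Tra2a, a splicing regulator, was at 23.3, 22.8, 25.4, 29.2 and 23.7 CPM in CTRL and at 44.3, 34.9, 39.0 and 32.8 CPM in T1 (0.60 ± 0.11, edgeR adjusted p = 0.121), highest in T1 replicate 1. Neither gene had an overlap between groups. Sec16a, a scaffold of endoplasmic reticulum exit sites, was at 0.80 ± 0.16, and Creb3l2, a membrane-bound transcription factor activated in the Golgi, at 0.71 ± 0.14 (edgeR adjusted p = 0.121 for both). Adcy6, an adenylyl cyclase, was at 0.81 ± 0.16 and Igf1r, the receptor of insulin-like growth factor 1, at 0.70 ± 0.14 (edgeR adjusted p = 0.128 for both). Igf1r was at 31.1, 38.1, 53.1 and 41.4 CPM in T1 and at 19.9 to 30.5 CPM in CTRL, so replicate 1 stood just outside the controls.

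Among those lower in T1, Prpsap2, which associates with the enzyme that makes phosphoribosyl pyrophosphate (chr11:61729650-61762088, minus strand), was at 20.5, 22.7, 22.3, 21.7 and 21.03 CPM in CTRL and at 15.7, 15.2, 13.3 and 13.8 CPM in T1 (-0.58 ± 0.10, edgeR adjusted p = 0.121). The 4 T1 values lay close together and below all controls. The same separation held for Otub1, a deubiquitinase (-0.48 ± 0.09), Mecr, of mitochondrial fatty acid synthesis (-0.65 ± 0.13), Tamm41, of cardiolipin synthesis (-0.80 ± 0.16), and Aspscr1, a tether of glucose transporter vesicles (-0.58 ± 0.11), each with an edgeR adjusted p of 0.121, and for Snx17, an endosomal sorting protein (-0.41 ± 0.09), and Rd3, known as a regulator of guanylate cyclase in photoreceptors (-0.77 ± 0.16), with 0.128. In T1 replicate 1 alone Mecr was at -0.59, Tamm41 at -0.68, Aspscr1 at -0.57, Snx17 at -0.36, Prpsap2 at -0.46, Otub1 at -0.31 and Rd3 at -0.57. In replicates 2 to 4 the same genes were at -0.68, -0.84, -0.59, -0.43, -0.62, -0.55 and -0.84. Msx1, a homeobox transcription factor, was at 779, 869, 856, 872 and 688 CPM in CTRL and at 590, 642, 538 and 570 CPM in T1 (-0.47 ± 0.15, edgeR adjusted p = 0.139). Srsf2, a splicing factor, was at 142 to 158 CPM in CTRL and at 111 to 133 CPM in T1 (-0.28 ± 0.09, edgeR adjusted p = 0.141).

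**Figure D4:**
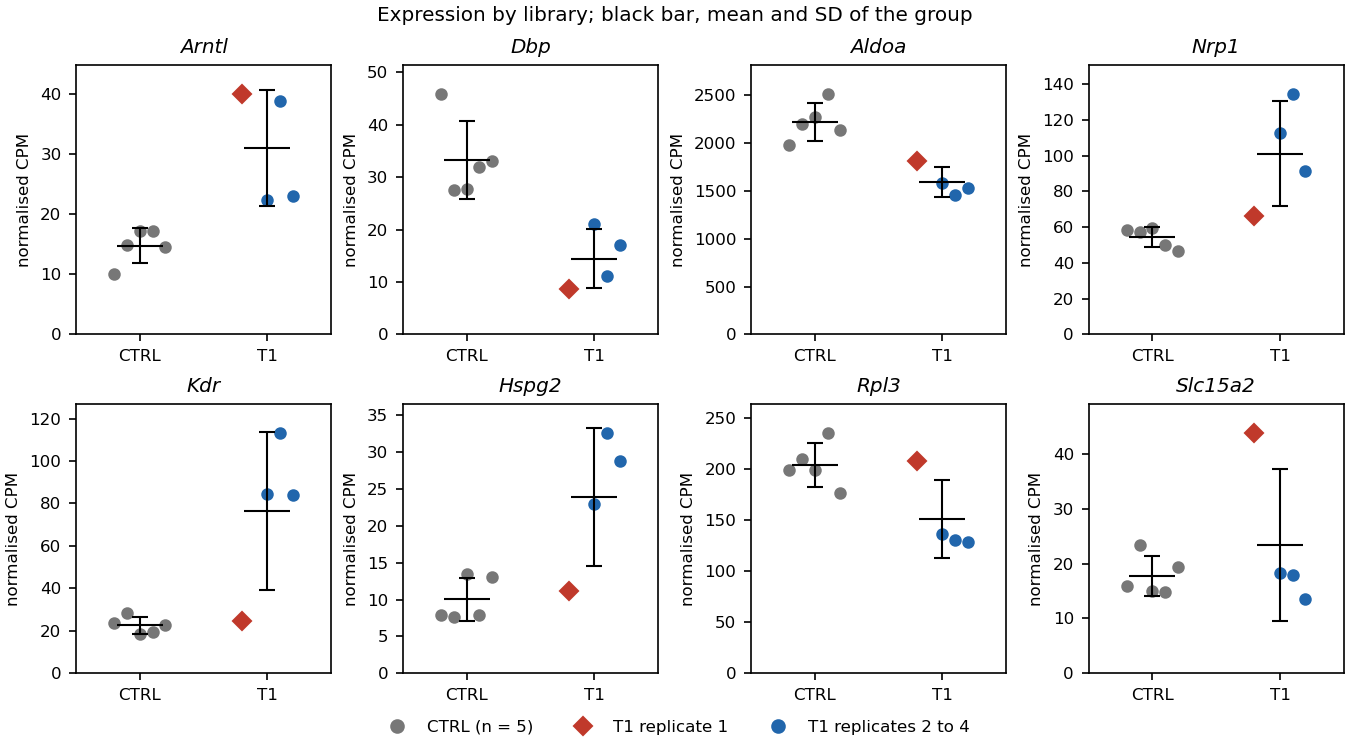
CPM of 8 genes (vertical axes from 0) in each of the 5 CTRL libraries (grey), T1 replicate 1 (red) and T1 replicates 2 to 4 (blue), 1 point per library, with black bars for the mean and SD of each group. Arntl, Dbp, Aldoa and Nrp1 have all 4 T1 points on one side of the controls, T1 replicate 1 sits among the controls for Kdr, Hspg2 and Rpl3, and it alone lies above them for Slc15a2.

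Glycolytic enzymes were often separated in all 4 libraries. They turn glucose into pyruvate, and the list of 18 tested genes also holds Slc2a1, a glucose transporter. Of the 18, 7 (Aldoa, Tpi1, Gapdh, Pgam1, Eno1, Pkm and Ldhb) lay below every control in all 4 T1 libraries, beside 3.86% of all genes. Tpi1, triosephosphate isomerase, was at 744, 712, 737, 828 and 668 CPM in CTRL and at 643, 495, 460 and 497 CPM in T1 (-0.49 ± 0.13, edgeR adjusted p = 0.131). Aldoa, aldolase, was at 1986, 2199, 2276, 2513 and 2137 CPM in CTRL and at 1810, 1581, 1459 and 1529 CPM in T1 (-0.48 ± 0.13, edgeR adjusted p = 0.132). In both genes T1 replicate 1 was the highest of its group and still under the lowest control. Pgam1, phosphoglycerate mutase, was at -0.45 ± 0.13 (edgeR adjusted p = 0.138), and Pgm1, phosphoglucomutase, which feeds glucose from glycogen into the pathway, at -0.47 ± 0.10 (edgeR adjusted p = 0.128). Pgm1 is not in the list. Over all 4 libraries 10 of the 18 listed genes were lower and 0 higher at an unadjusted edgeR p under 0.05, beside 11.7% and 9.43% of all genes. The median log2 fold change was -0.31 in T1, -0.40 in replicates 2 to 4, where 8 fell past the adjusted threshold (8.97% of all genes), and -0.17 in replicate 1, where 10 lay below the CTRL range (17.9% of all genes). The T1 median was -0.30 with the trend on transcript length removed, -0.24 with the brain covariate and -0.117 with a term for title number. That term leans on T1 replicate 1, the only T1 library with a low number, and on the difference inside T3, so it is no separate check.

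A wider set of housekeeping genes fell in T1 replicates 2 to 4, while their list medians were near control level in replicate 1. All 30 tested genes of the cytoplasmic ribosome fell in those 3 libraries, beside 8.97% of all genes, with a median of -0.71. Rplp0, a stalk protein of the large subunit (chr5:115559467-115563727, plus strand), was at 286, 278, 288, 341 and 247 CPM in CTRL and at 179, 183 and 187 CPM in T1 replicates 2 to 4 (-0.66 ± 0.14, edgeR adjusted p = 0.0204). T1 replicate 1 was at 297 CPM, inside the control range. Rpl3, of the same subunit, was at 176 to 235 CPM in CTRL, at 137, 130 and 128 CPM in replicates 2 to 4 (-0.63 ± 0.13, edgeR adjusted p = 0.0204) and at 208 CPM in replicate 1. The median of the 30 genes in replicate 1 was 0.08.

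The proteasome, which degrades ubiquitin-tagged proteins, followed, with 24 of 26 subunits lower in replicates 2 to 4, beside 8.97% of all genes (median -0.64, and -0.01 in replicate 1). Psmb6, a catalytic subunit, was at 314, 287, 283, 341 and 258 CPM in CTRL and at 264, 189, 163.3 and 156 CPM in T1 (-0.81 ± 0.16 in replicates 2 to 4, edgeR adjusted p = 0.0204), so that replicate 1 lay within the controls. For 4 of the 26, beside 3.86% of all genes, replicate 1 was below the controls too. Psmc2 of the regulatory particle was among them (180 to 209 CPM in CTRL, 170, 157, 133 and 148 CPM in T1). Nuclear genes of the respiratory chain fell in 26 of 30 cases, beside 8.97% of all genes (median -0.72, and -0.02 in replicate 1). Atp5d, a subunit of ATP synthase, was at -0.80 ± 0.18 in replicates 2 to 4 (edgeR adjusted p = 0.0208). Proteins of the mitochondrial ribosome fell in 20 of 30 cases, beside the same share (median -0.55, and -0.10 in replicate 1), with Mrpl15 at -0.55 ± 0.15 (edgeR adjusted p = 0.0291). For 5 of the 30, Mrpl15 among them, all 4 T1 libraries lay below every control, beside 3.86% of all genes. Of 8 mitochondrially encoded genes 6 fell, beside 8.97% of all genes (median -0.67, and 0.19 in replicate 1), mt-Nd1 of complex I among them (-0.73 ± 0.17, edgeR adjusted p = 0.0214). Median exonic lengths were 2224 bases for the ribosome list, 2814 for the proteasome and 2151 for the nuclear respiratory genes. These lie in the length class of 2130 to 3384 bases, whose 3369 genes had a median of -0.045 in replicates 2 to 4. With the length trend removed, the medians over all 4 T1 libraries went from -0.46 to -0.35 for the ribosome, from -0.47 to -0.38 for the proteasome and from -0.49 to -0.37 for the nuclear respiratory genes. When high title numbers (4 libraries) had their own term they were 0.09, -0.01 and 0.00, near the medians of T1 replicate 1, on which that term leans by design.

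Vascular genes rose in T1 replicates 2 to 4. Kdr, the main receptor of vascular endothelial growth factor (VEGF) on endothelium (chr5:75932827-75978458, minus strand), was at 23.9, 28.6, 18.8, 19.5 and 22.7 CPM in CTRL and at 84.5, 113 and 83.9 CPM in those 3 libraries, 2.05 ± 0.23 higher (edgeR adjusted p = 0.00319, the lowest of that comparison). T1 replicate 1 was at 24.5 CPM, within the controls. Of 20 endothelial genes, 12 rose in replicates 2 to 4, beside 4.16% of all genes, and none fell (median 1.37, and 0.36 in replicate 1). Plvap, the diaphragm protein of fenestrated endothelium, was at 17.1 to 45.6 CPM in CTRL and at 33.0, 65.4, 123 and 84.8 CPM in T1 (1.38 ± 0.30 in replicates 2 to 4, edgeR adjusted p = 0.0208). Over all 4 T1 libraries 3 of the 20 endothelial genes, Tek, Vwf and Ets1, stood above every control, beside 2.90% of all genes.

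Of 20 genes of the VEGF and angiopoietin system, 8 rose and 1 fell in replicates 2 to 4, beside 4.16% and 8.97% of all genes (median 1.116, and -0.13 in replicate 1). Kdr, Flt1, Tek and Tie1 belong to both this list and the endothelial one, and count among the genes that rose in each. Among the receptors, Nrp1, the VEGF co-receptor, was at 46.8 to 59.5 CPM in CTRL and at 66.1, 113, 134 and 91.2 CPM in T1, with no overlap (1.05 ± 0.18 in replicates 2 to 4, edgeR adjusted p = 0.0181). Flt1, the decoy VEGF receptor, was at 6.90 to 28.01 CPM in CTRL and at 17.3, 37.3, 57.2 and 57.0 CPM in T1 (1.89 ± 0.45 in replicates 2 to 4, edgeR adjusted p = 0.0225). Tek, the angiopoietin receptor, was at 12.6 CPM in replicate 1, against a highest control of 11.3, and at 21.3, 19.0 and 24.04 CPM in the others. Esm1, which endothelium secretes on VEGF signalling, was at 1.40 to 4.57 CPM in CTRL and at 4.29, 11.2, 10.4 and 9.93 CPM in T1 (1.70 ± 0.32 in replicates 2 to 4, edgeR adjusted p = 0.0204). Mural cell genes had a median of 1.39 in replicates 2 to 4, with 3 of 12 called higher, beside 4.16% of all genes, and -0.33 in replicate 1.

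Basement membrane genes had the same division: 10 of 20 rose in replicates 2 to 4, beside 4.16% of all genes, and none fell (median 1.11, and -0.09 in replicate 1). Hspg2, perlecan, was at 7.66 to 13.4 CPM in CTRL, at 22.9, 32.6 and 28.8 CPM in replicates 2 to 4 (1.49 ± 0.24, edgeR adjusted p = 0.0178) and at 11.1 CPM in replicate 1. Lama5, a laminin chain, was at 20.3 to 38.4 CPM in CTRL, at 61.4, 67.6 and 54.5 CPM in replicates 2 to 4 (1.118 ± 0.19, edgeR adjusted p = 0.0178) and at 32.2 CPM in replicate 1. Lamc1, its partner chain, was higher than every control in replicate 1 too (24.4 CPM against 14.5 to 21.6). Col1a2, a fibrillar collagen chain of fibroblasts, was at 57.0 to 94.1 CPM in CTRL and at 123, 122, 128 and 175 CPM in T1, above the controls in all 4 libraries, but its spread left it short of the threshold (0.87 ± 0.32, edgeR adjusted p = 0.160). With the length trend removed the T1 medians were 1.14 for endothelium, against 1.13 without removal, and 0.65 for basement membrane, against 0.92. With the term for title number they were 0.20 and -0.11, values that again lean on T1 replicate 1.

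Some nuclear non-coding RNAs and immediate early genes rose in replicates 2 to 4. Malat1, a nuclear long non-coding RNA, was at 333 to 645 CPM in CTRL and at 574, 965, 1291 and 1415 CPM in T1 (1.49 ± 0.46 in replicates 2 to 4, edgeR adjusted p = 0.0448). Of 14 long non-coding RNAs in this list 3 rose (Malat1, Neat1 and Lncpint) and 1 fell (Gas5), beside 4.16% and 8.97% of all genes (median 1.19, and 0.32 in replicate 1). Immediate early genes, which cells switch on within minutes of a stimulus, rose in 7 of 22 cases, beside 4.16% of all genes, and fell in none (median 1.13, and 0.03 in replicate 1). Fos was at 1.29 to 4.29 CPM in CTRL and at 1.94, 5.25, 21.2 and 36.0 CPM in T1 (3.12 ± 0.78 in replicates 2 to 4, edgeR adjusted p = 0.0239). Zfp36, which destabilises cytokine messages, was at 8.69 to 12.2 CPM in CTRL and at 8.16, 20.2, 29.98 and 32.2 CPM in T1 (1.40 ± 0.24 in replicates 2 to 4, edgeR adjusted p = 0.0193). T1 replicate 1 was within the controls for Fos and below them for Zfp36.

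**Figure D5:**
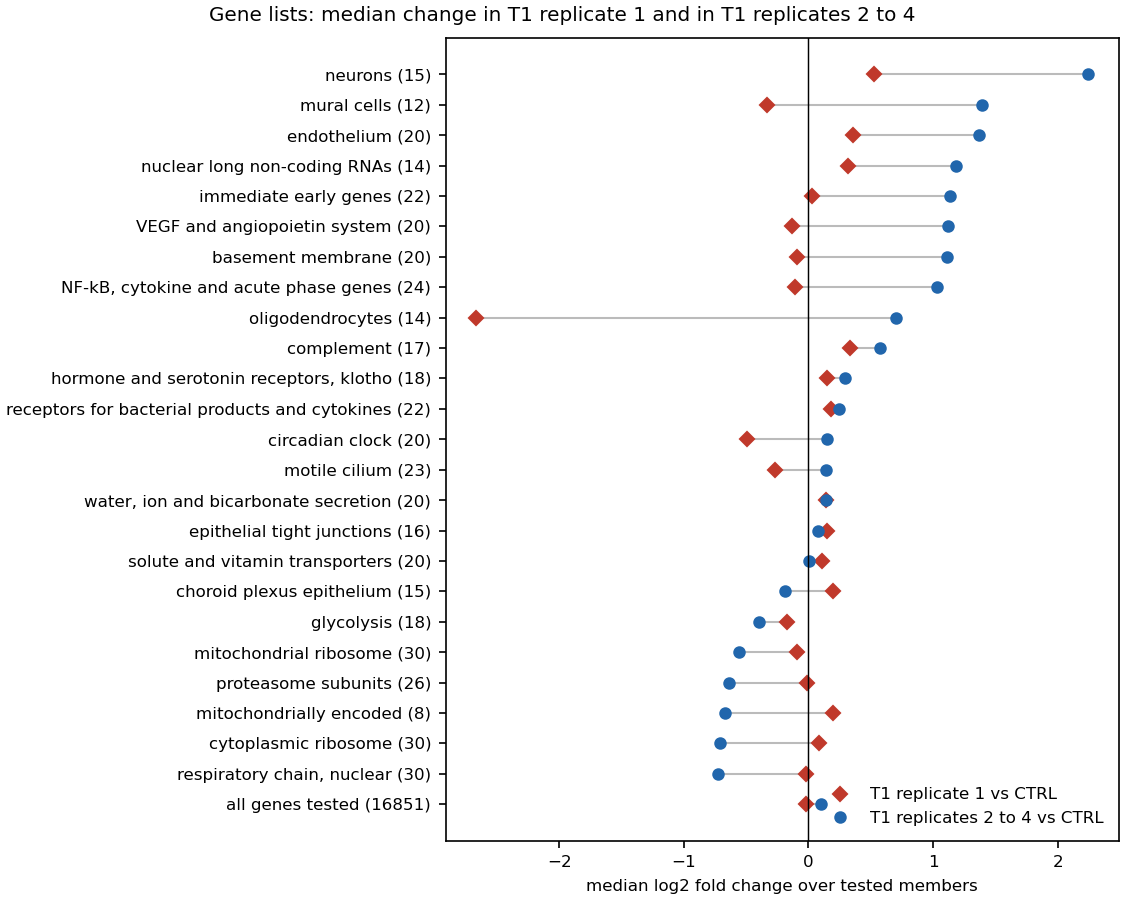
Median log2 fold change against CTRL (horizontal axis) of 24 gene lists and of all tested genes, with the number of genes in brackets, in T1 replicates 2 to 4 (blue) and T1 replicate 1 (red), joined by a grey line. In replicates 2 to 4 the ribosome, proteasome and respiratory lists lie between -0.72 and -0.55 and the endothelial list at 1.37, while in replicate 1 they lie between -0.10 and 0.36.

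Among immune genes, several cytokine receptors were separated in all 4 libraries. Il6st, gp130, the shared receptor chain of the interleukin-6 family, was at 58.3, 67.7, 59.4, 62.5 and 69.5 CPM in CTRL and at 84.8, 119, 137 and 100.9 CPM in T1 (0.80 ± 0.19, edgeR adjusted p = 0.128; 0.91 ± 0.19 in replicates 2 to 4, edgeR adjusted p = 0.0204). Ifngr1, a chain of the interferon-gamma receptor, was at 31.9, 34.0, 29.1, 33.9 and 30.5 CPM in CTRL and at 42.1, 37.8, 47.0 and 39.5 CPM in T1 (0.38 ± 0.12, edgeR adjusted p = 0.140). Both were higher than all controls in every T1 library, as was Ifnar1, so 3 of 22 receptor genes stood above the controls, beside 2.90% of all genes, and the median of the 22 was 0.20 (0.102 without T1 replicate 3). Tnfrsf1b, a receptor of tumour necrosis factor, rose in replicates 2 to 4 (1.85 ± 0.43, edgeR adjusted p = 0.0213) and was at 2.96 CPM in replicate 1, within the controls.

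NF-kB, cytokine and acute phase genes had a T1 median of 0.79, with 11 of 24 higher and 0 lower at an unadjusted p under 0.05, beside 9.43% and 11.7% of all genes. The median was -0.11 in replicate 1, and over the T1 group it was 0.329 without T1 replicate 3. Several of these genes were high in T1 replicate 3 alone, the library with pituitary transcripts. There Lcn2, an iron-scavenging acute phase protein, was at 49.2 CPM, against 0.918, 0.204 and 0.182 CPM in replicates 1, 2 and 4. The chemokine Ccl2 was at 8.29 CPM in replicate 3 and at 0.510, 0.774 and 0.637 CPM in the others. Osmr, the oncostatin M receptor, was highest in that library too, at 26.4 CPM, but the other 3 T1 libraries (9.90, 9.37 and 10.1 CPM) also lay above the controls (2.71 to 7.62 CPM), giving 1.48 ± 0.36 (edgeR adjusted p = 0.128). Slc39a14, a zinc and iron importer that interleukin-6 induces in liver, was at 23.2 to 58.7 CPM in CTRL and at 66.4, 74.9, 84.0 and 67.2 CPM in T1, with no overlap (0.81 ± 0.21, edgeR adjusted p = 0.131). The mean log2 CPM of neutrophil genes was 2.45 in T1 replicate 3, against -0.95, -0.22 and -0.18 in the other T1 libraries and -2.43 to 1.71 in CTRL. The part of this library's other tissue or blood cells in these values was not tested.

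Complement genes were higher in 6 of 17 cases and lower in 0 at an unadjusted p under 0.05 (median 0.51 in T1, 0.34 in replicate 1), beside 9.43% and 11.7% of all genes, and the T1 median was 0.335 without T1 replicate 3. Cfp, properdin, which stabilises the alternative pathway convertase, was at 1.69, 0.726, 1.14, 1.32 and 1.01 CPM in CTRL and at 2.45, 1.95, 5.38 and 4.28 CPM in T1, all above the controls (1.58 ± 0.37, edgeR adjusted p = 0.128). Ciita, the activator of MHC class II genes, was low but separated: 0.315 to 1.01 CPM in CTRL and 1.94, 1.83, 1.88 and 1.64 CPM in T1 (1.17 ± 0.36, edgeR adjusted p = 0.138). The MHC class II list holds Ciita itself. Of its 7 tested genes 1, which was Ciita, was higher and 0 lower at an unadjusted edgeR p under 0.05 (median -0.10 in T1). Of 19 type I interferon response genes 0 passed in either direction, and of 15 macrophage genes 5 were higher and 0 lower, against the same shares of all genes.

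Genes of epithelial function were compared next. Of 15 epithelial markers 0 passed an unadjusted p under 0.05 in either direction, and the median was 0.00 in T1, 0.19 in replicate 1 and -0.19 in replicates 2 to 4. The share of counts on Ttr was 13.6, 9.59, 8.61 and 6.75% in T1 replicates 1 to 4, so replicate 1 had the highest share of the 9 libraries and replicate 4 the lowest. Water, ion and bicarbonate transport genes numbered 3 higher and 1 lower of 20 (median 0.15), solute and vitamin transporters 1 higher and 0 lower of 20 (median 0.10), and tight junction genes 3 higher and 1 lower of 16 (median 0.16), all at an unadjusted p under 0.05, where 9.43% of all genes were higher and 11.7% lower. Abcg2, an efflux pump of the barrier, was at 34.6 to 46.8 CPM in CTRL and at 69.8, 49.1, 41.3 and 50.5 CPM in T1 (0.41 ± 0.18, edgeR adjusted p = 0.210), with replicate 3 inside the control range. Cldn12, a claudin, was at 20.3 to 45.2 CPM in CTRL and at 60.6, 52.1, 51.2 and 38.2 CPM in T1 (0.42 ± 0.18, edgeR adjusted p = 0.195), with replicate 4 inside it.

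Receptors for hormones and serotonin had a T1 median of 0.25, and 3 of 18 rose in replicates 2 to 4, beside 4.16% of all genes. Many of these transcripts are long (median 9181 exonic bases), and with the length trend removed the T1 median was 0.05. Insr, the insulin receptor, was at 27.2 to 31.7 CPM in CTRL, at 45.6, 57.1 and 56.0 CPM in replicates 2 to 4 (0.86 ± 0.15, edgeR adjusted p = 0.0178) and at 30.5 CPM in replicate 1. Motile cilium genes, whose products build beating cilia, had a median of 0.04 in T1. Of the 23, 12 lay below the controls in T1 replicate 1, among them the dynein heavy chains Dnah1, Dnah7a and Dnah9 (named after their values were seen), beside 17.9% of all genes, with a median of -0.26. Tekt1, a tektin of the ciliary doublets, was below the controls in all 4 libraries and lower in the other 3 than in replicate 1, at 146.1 to 168 CPM in CTRL and 140, 111, 95.7 and 78.4 CPM in T1 (-0.70 ± 0.18 in replicates 2 to 4, edgeR adjusted p = 0.0249).

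Transcripts of brain tissue varied widely in both groups. The 14 oligodendrocyte genes summed to 195 to 7300 CPM in CTRL and to 428, 969, 2870 and 9515 CPM in T1, and none passed in any contrast with CTRL; the median was 0.35 in T1 and -2.66 in replicate 1. The T1 median ran from -0.728 without T1 replicate 4 to 1.182 without CTRL replicate 5. The sum of the neuronal genes was 18.5 to 136 CPM in CTRL and 119, 231, 227 and 446 CPM in T1, with replicate 1 inside the control range. Slc17a7, the glutamate transporter of cortical synapses, was at 1.52, 0.202, 0.547, 3.72 and 2.02 CPM in CTRL and at 5.92, 22.4, 17.6 and 16.7 CPM in T1, above all controls in every library (3.33 ± 1.33, edgeR adjusted p = 0.185). Of 15 neuronal genes 6 were separated in this way, beside 2.90% of all genes, and the median was 1.999 in T1. With the mean log2 CPM of 12 myelin and synapse genes of nearby brain as a covariate, the T1 median of the neuronal genes was 0.81. That covariate shares genes with the neuronal list, Camk2a and Snap25 among them, so a smaller median was partly built in.

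T1 replicate 1 was also compared with the other T1 libraries directly. Against replicates 2 to 4, edgeR called no gene (lowest adjusted p 0.139), 2924 passed an unadjusted p under 0.05 (1624, or 9.64%, higher in replicate 1 and 1300, or 7.71%, lower), DESeq2 called 411 and limma with sample quality weights 1. The contrast rests on 1 library on one side, assumed to vary like the others. Slc15a2, the peptide transporter PEPT2 of the apical epithelium (chr16:36750177-36784962, minus strand), was at 43.8 CPM in replicate 1 against 18.3, 17.9 and 13.6 CPM in the others (1.40 ± 0.27, edgeR adjusted p = 0.139). CTRL ran from 14.7 to 23.4 CPM, so replicate 1 lay well above the controls and replicate 4 just below them. Fam107a, a stress-responsive regulator of actin, was at 68.9 CPM against 31.2, 38.9 and 28.7 CPM (1.06 ± 0.22, edgeR adjusted p = 0.139). The mitochondrial ribosomal RNA mt-Rnr1 was at 1808 CPM against 595, 676 and 645 CPM (1.501 ± 0.31, edgeR adjusted p = 0.139) and 1063 to 1482 CPM in CTRL, so that both sides left the control range, in opposite directions. Rps4x, of the small ribosomal subunit, was at 68.7 CPM against 35.7, 33.6 and 38.3 CPM (0.94 ± 0.19, edgeR adjusted p = 0.139), and here replicate 1 was within the controls (51.0 to 71.5 CPM).

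Among genes lower in replicate 1, Lrp1, an endocytic receptor (chr10:127538161-127621148, minus strand), was at 104 CPM against 239, 294 and 284 CPM (-1.39 ± 0.26, edgeR adjusted p = 0.139). CTRL ran from 108 to 139 CPM, so replicate 1 lay just below the controls and the other 3 above them, 1.117 ± 0.15 higher than CTRL (edgeR adjusted p = 0.0103). Nav2, a cytoskeletal guidance protein, was at 15.0 CPM against 56.4, 48.4 and 51.8 CPM (-1.80 ± 0.34, edgeR adjusted p = 0.139), on either side of 22.1 to 27.2 CPM in CTRL. For Atad5, which unloads the replication clamp, and Pus7, a pseudouridine synthase, replicate 1 alone lay below the controls. Atad5 was at 1.02 CPM against 3.87, 4.66 and 4.64 CPM, and Pus7 at 5.00 CPM against 15.0, 13.3 and 14.7 CPM (edgeR adjusted p = 0.139 for both).

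Of the 701 genes that rose in replicates 2 to 4, T1 replicate 1 lay above the CTRL range for 136 (19.4%), within it for 446 (63.6%) and below it for 119, beside 18.1% and 17.9% of all genes above and below. Their median log2 fold change was 0.82 in replicates 2 to 4, which chose them, and 0.01 in replicate 1. Of the 1512 that fell, replicate 1 lay below the range for 366 (24.2%), within it for 984 (65.1%) and above it for 162 (10.7%), with medians of -0.61 and -0.04. Genome-wide, replicate 1 correlated with the other T1 libraries at Pearson r of 0.922 to 0.963 on log2 CPM across genes, and they among themselves at 0.949 to 0.973. It correlated with the CTRL libraries at 0.954 to 0.966, and those among themselves at 0.939 to 0.977.

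The difference inside T1 was set against one inside T3 that shares no library with it. The change from T1 replicate 1 to T1 replicates 2 to 4, and that from T3 replicates 1 to 3 to T3 replicate 4, had a Pearson r of 0.552 over the 16851 genes and 0.687 over the 10833 with a mean of at least 5 CPM; genes are not independent replicates, and the points share length and base composition. The medians were -0.79 and -0.79 for the cytoplasmic ribosome, -0.63 and -0.69 for the proteasome, -0.65 and -0.76 for the nuclear respiratory genes, 1.19 and 1.36 for basement membrane, 0.92 and 1.62 for endothelium, and 0.95 and 1.32 for immediate early genes. For the clock genes the medians were 0.63 and 0.35, and for neuronal genes 1.13 and 3.57. They differed in sign for motile cilium genes (0.50 and -0.16), receptors for bacterial products and cytokines (0.08 and -0.07) and water and ion transport genes (0.02 and -0.11).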

How the data were processed

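The deposited table holds raw read counts per gene, made by the authors; per the submitters' processing notes the tools were Trimmomatic 0.39, STAR 2.6.1b and featureCounts 1.6.4 with the GRCm38 build, under settings that the sources used here do not give. Per the labels, RNA was extracted with Direct-zol and libraries were made with SMART-Seq v4. Groups follow the time point given for each sample in the labels, and replicates are numbered in accession order, so the numbers pair nothing. Of 55487 gene IDs, 55394 matched GENCODE M21 (93 did not), which gave symbols and exonic lengths.

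From the counts, edgeR 4.0.16 (R 4.3.3) fitted its quasi-likelihood model to all 17 libraries with TMM factors, filterByExpr and 1 mean per group, or 5 means with T1 replicate 1 apart, with Benjamini-Hochberg adjustment at 0.05. The common dispersion was 0.141 (biological coefficient of variation 37.6%). The standard error of a fold change was taken as its size over the root of F. Alternatives used DESeq2 1.42.0, limma 3.58.1 (voom with quality weights), other filters and scalings, single libraries left out, covariates for brain markers and for title number, and an offset for transcript length. The test was also run on counts simulated at a dispersion of 0.05, below that of these data and with no division inside T1. There it recovered 85% of 100 genes changed 2-fold and 100% of 100 changed 4-fold, with 6 false calls. Those rates need not hold for these data.

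The libraries, gene lists and tests were chosen with earlier results of these data known. The 52 lists hold 942 entries, of which 884 were tested. The 24 lists described by their medians are those printed, and 2 more, pituitary and pineal, were added after levels were seen. Genes named are the lowest p in T1 against CTRL, up to 3 per list, those with the widest gap between groups, those with the lowest p between T1 replicate 1 and the others, and 11 set genes. Ranked names needed an average of 1 CPM over the 9 libraries. Other names were picked after their values were seen and are given as values.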

Additional observations from a re-analysis of the deposited data

Results flagged for a closer look

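Of 190 groups of values checked in CTRL or T1 (65 genes, 24 lists, 4 library measures and 2 tissue sums), 17 held a library far from the rest by Dixon's criterion, where chance gives about 1 in 20. That rate does not hold for Slc15a2, Rps4x and mt-Rnr1, which were named for their difference between T1 replicate 1 and the others, or for the pituitary and pineal sums, whose lists were written after the levels were seen. T1 replicate 1 accounted for 7. It was high for Rpl3 (207.7 CPM, next 136.7), Rplp0 (296.6, next 186.9), Rps4x (68.68, next 38.34), Slc15a2 (43.78, next 18.29) and mt-Rnr1 (1808, next 676.2). It was also high for the share of counts on mitochondrial genes (3.371%, next 2.038%) and low for the mean log2 CPM of the clock genes (4.031, next 4.488).

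T1 replicate 3 was high for Osmr (26.36 CPM, next 10.11) and for the summed pituitary genes (4135 CPM, next 3.278). T1 replicate 4 was high for Col1a2 (175.4 CPM, next 128.2) and for the summed pineal genes (131.8 CPM, next 12.05).

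Among the controls, CTRL replicate 1 was low for Cldn12 (20.33 CPM, next 39.48), for the mean log2 CPM of the epithelial markers (10.07, next 10.61) and of the solute and vitamin transporters (6.861, next 7.544), and high for the share of counts on long non-coding RNAs (0.9467%, next 0.7733%). CTRL replicate 4 was low for Ciita (0.3148 CPM, next 0.8410) and high for Mecr (47.73 CPM, next 36.62).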

How the results depend on the processing

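Genes called numbered 701 in T1 against CTRL, 8 in T1 replicate 1 against CTRL and 411 in replicate 1 against replicates 2 to 4 with DESeq2. With voom they numbered 4140, 6271 in replicates 2 to 4 against CTRL, and 1 in replicate 1 against replicates 2 to 4, which was also the number with only CTRL and T1 libraries fitted. With the brain covariate replicates 2 to 4 gave 1 call, and the T1 medians were -0.24 for glycolysis, 0.365 for mural cells and 0.806 for neurons, whose list shares genes with that covariate. With the length trend removed, which was chosen after seeing the data, they gave 1363 calls, and medians were 0.049 for hormone receptors and 0.025 for water and ion transport. Voom gave -0.41 for glycolysis and 3.129 for neurons. With T1 replicates 3 and 4 left out together, also chosen after seeing the data, medians were -0.264 for glycolysis, 0.4 for mural cells and -1.879 for oligodendrocytes. Leaving out 1 library at a time gave 0 to 2203 calls in T1 against CTRL (2203 without T1 replicate 1, 717 without T3 replicate 4) and 1 to 2098 in replicates 2 to 4 against CTRL (1381 without CTRL replicate 2, 1374 without CTRL replicate 3). It gave medians of -0.404 to -0.259 for glycolysis and 0.029 to 0.223 for water and ion transport, and T1 minus CTRL differences of -0.8801 to -0.3752 percentage points in mitochondrial share and 2805 to 4457 in genes detected. With a term for title numbers of 28 and above, T1 medians were -0.43 for the clock, -0.117 for glycolysis, 0.202 for endothelium, -0.007 for the VEGF system, -0.622 for mural cells, -0.112 for basement membrane, 0.094 for the cytoplasmic ribosome, -0.006 for the proteasome, 0.003 for the nuclear respiratory genes, -0.033 for the mitochondrial ribosome, 0.103 for mitochondrially encoded genes, 0.044 for nuclear non-coding RNAs, -0.033 for immediate early genes, 0.126 for complement, -0.179 for neurons and -1.936 for oligodendrocytes, and Rplp0 (0.031), mt-Nd1 (0.029), Malat1 (-0.017), Zfp36 (-0.043) and Tekt1 (0.022) changed sign. Without those libraries, when T1 is replicate 1 alone, its spread assumed to equal that within the other groups, the medians in the same order were -0.514, -0.19, 0.347, -0.152, -0.35, -0.112, 0.066, -0.032, -0.04, -0.113, 0.177, 0.303 and 0.011, then -0.127 for NF-kB genes, 0.125 for hormone receptors, -0.288 for motile cilium, 0.519 for neurons and -2.681 for oligodendrocytes, and Plvap (-0.105), Rpl3 (0.01), Rplp0 (0.025), mt-Nd1 (0.054), Zfp36 (-0.361) and Fos (-0.31) changed sign. The cause was not tested for any of these changes. The term for title number leans on T1 replicate 1, the only T1 library with a low number, and on the difference inside T3, so it is no separate check. Leaving out the libraries with title numbers of 28 and above was also chosen after seeing the data. Of all recomputed values, 53 gene counts stayed within 1.5 times and 16 did not, 455 list medians stayed within the spread between replicates and 49 did not, and of single genes 1116 kept direction and side of the threshold, 198 newly passed it in the same direction and 11 changed sign. No paired analysis was possible because the labels give no replicate numbers shared between groups.

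With 1 library on a side of several contrasts and depth as low as 8875921 counts, a missing call does not show equal levels. DSS, title number and other tissue in T1 replicates 3 and 4 cannot be told apart for what replicates 2 to 4 alone show.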

Other observations

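Counts at an unadjusted edgeR p under 0.05 over the 4 T1 libraries, beside 9.43% of all genes higher and 11.7% lower, were also taken for further gene groups. None of their genes passed the adjusted threshold. Some of their genes are also described above, among them Tekt1 (ependymal) and Lcn2 (glucocorticoid-responsive, high in T1 replicate 3 alone). Of 20 cytosolic chaperones, which fold proteins under heat and other stress, 6 were lower and 0 higher. Of 20 genes of endoplasmic reticulum folding, 1 was lower and 0 higher. Splicing regulators were higher in 7 of 26 cases and lower in 1. Among ependymal genes, of the ciliated ventricle lining, 5 of 12 were lower and 1 higher. Fibrillar collagens and other matrix genes were higher in 4 of 18 cases, chemokines in 4 of 16 and glucocorticoid-responsive genes in 3 of 20, and lower in 0. Cholesterol synthesis genes were lower in 2 of 20 cases and higher in 0.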
